A study of Mus musculus with 12 samples.

Results

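The 10 genes described here encode interferon-induced antiviral proteins and the ISG15 pair: Isg15 and Usp18, Rsad2 and Cmpk2, the dynamin-like Mx1 and Mx2, and Xaf1, Ifi44, Bst2 and Rtp4. They are a list of symbols, drawn up with earlier results of these data known, and all 10 were found among the 21959 genes of the table. Their RNA was measured by bulk RNA sequencing in C8-D1A, an established clonal line of mouse astrocytes, in 12 libraries. Each of 4 groups had 3 libraries, collected after 24 h: cells under 15% CO2, cells given 20 mM lactic acid, cells in medium with 0.2 g/L NaHCO3 (low-NaHCO3 medium), and control cells at 37 °C under 5% CO2. The labels give no genetic change for any group, and interferon was not among the labelled treatments. The sources used here give no pH for any group. Nor do they say that replicates were separate cultures, so p-values measure the spread between these libraries only, which may be technical.

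Type I interferons bind a receptor on the cell surface and act through transcription factors such as STAT2 and IRF9, which switch on genes whose promoters hold an interferon-stimulated response element. ISG15 is a small protein of the ubiquitin family that is joined to other proteins by its own chain of enzymes, and USP18 takes it off again and also restrains signalling at the receptor. Several of the others act on viruses directly: viperin (from Rsad2) makes a nucleotide that stops viral polymerases, Mx proteins trap viral particles, and tetherin (from Bst2) holds budding virions on the cell. Astrocytes of the brain are known to switch on these genes during infection and inflammation.

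RefSeq promoter windows (build GRCm38.p6, from 250 bases before to 50 after the annotated start) were found for 6 of the 10 genes. Those of Isg15, Bst2, Rsad2 and Cmpk2 are shown because these genes run across the whole range of matches, and because the results below turn on them. They are written 5′ to 3′ on the strand of the gene, with capitals for matches to the core letters of the response element on either strand (GAAANNGAAA, or its shorter form AANNGAAA, where N is any base). The windows lie at chr4:156200769-156201068 (minus strand) for Isg15, chr8:71537423-71537722 (minus) for Bst2, chr12:26456403-26456702 (minus) for Rsad2 and chr12:26468965-26469264 (plus) for Cmpk2.
Isg15: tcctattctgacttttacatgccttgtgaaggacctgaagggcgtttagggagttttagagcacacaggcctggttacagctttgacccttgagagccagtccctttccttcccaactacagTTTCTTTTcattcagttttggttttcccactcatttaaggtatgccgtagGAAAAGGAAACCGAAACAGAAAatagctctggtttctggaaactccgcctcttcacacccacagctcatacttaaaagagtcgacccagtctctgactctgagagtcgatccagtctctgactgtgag
Bst2: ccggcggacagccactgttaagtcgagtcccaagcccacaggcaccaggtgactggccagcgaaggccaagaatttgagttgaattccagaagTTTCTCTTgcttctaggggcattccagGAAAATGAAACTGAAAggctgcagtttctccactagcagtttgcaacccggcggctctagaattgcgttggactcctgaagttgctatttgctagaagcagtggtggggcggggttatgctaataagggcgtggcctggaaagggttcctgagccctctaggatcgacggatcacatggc
Rsad2: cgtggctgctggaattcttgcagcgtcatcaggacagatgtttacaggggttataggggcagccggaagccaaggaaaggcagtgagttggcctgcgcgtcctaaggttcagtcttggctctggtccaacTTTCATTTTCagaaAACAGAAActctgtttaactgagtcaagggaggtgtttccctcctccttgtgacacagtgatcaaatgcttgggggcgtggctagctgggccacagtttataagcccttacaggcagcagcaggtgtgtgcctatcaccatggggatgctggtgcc
Cmpk2: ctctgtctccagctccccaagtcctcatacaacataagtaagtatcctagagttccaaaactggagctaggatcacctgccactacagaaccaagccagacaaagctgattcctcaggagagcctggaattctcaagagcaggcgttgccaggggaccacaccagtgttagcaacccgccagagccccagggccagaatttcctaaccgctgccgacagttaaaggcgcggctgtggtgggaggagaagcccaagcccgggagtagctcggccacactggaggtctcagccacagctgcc

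The Isg15 window held 3 overlapping matches to the longer form, between bases -78 and -57 before the start. Bst2 held 2, between -130 and -115, and Rsad2 held 1 on the opposite strand, between -120 and -111. The windows of Ifi44, Xaf1 and Cmpk2 held none of the longer form. Counting the shorter form, which lies inside many matches of the longer, Isg15 had 4, Bst2 and Ifi44 3 each, Rsad2 and Xaf1 2 each, and Cmpk2 0. Of all 32851 windows in the table, 3.443% held the longer form and 23.917% the shorter. For Cmpk2 and Xaf1 the start used lies downstream of the gene's outermost RefSeq start, so their windows reach less far upstream of it.

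The values are TPM, transcripts per 1000000 transcripts, in which gene length is already divided out and each library sums to 1000000. Control replicate 1 (control 1) stood apart: summed markers of neurons reached 2036 TPM there and 86.0 to 136 TPM in the other 11 libraries. Markers of microglia summed to 123 TPM in control 1 and 3.86 to 11.04 TPM elsewhere, oligodendrocyte markers to 828 against 30.8 to 58.3 TPM, endothelial markers to 62.1 against 16.0 to 19.4 TPM and red blood cell markers to 324 against 0.221 to 2.74 TPM. All 6 neuron, 5 oligodendrocyte, 6 microglia, 4 endothelial and 3 red blood cell genes listed were highest in control 1. Among 8 astrocyte markers, Vim averaged 1503 to 2507 TPM and Sox9 30.0 to 51.2 TPM over the groups, and S100b 35.0 to 43.5 TPM outside control 1. The other 5 were near 0 outside control 1: Gfap reached at most 1.19 TPM there, Aldh1l1 0.641 TPM, Slc1a2 0.416 TPM and Aqp4 0.356 TPM, and Slc1a3 was listed at 0 in every library under 15% CO2, in low-NaHCO3 medium and in controls 2 and 3. Of the 8, 6 were highest in control 1. The part of these markers' cells in the values of control 1 was not tested, so each comparison is given with 12 libraries and again with the 11 left without control 1. Mitochondrially encoded genes summed to 104049 to 108557 TPM in low-NaHCO3 medium and to 156010 to 278249 TPM in the other libraries. In bulk RNA, fewer cells that express a gene and less RNA per cell cannot be told apart.

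Transcripts of these genes were most abundant in low-NaHCO3 medium, less so under 15% CO2, and lowest with lactic acid and in control cells. Group means fell from low-NaHCO3 medium to 15% CO2, then lactic acid, then control for 9 of 10 genes with all controls. With control 1 left out they did so for 10 of 10. The share of all genes in this order was not counted. By limma's moderated F test on log2(TPM + 1), with Benjamini-Hochberg adjustment over all genes, 8 of the 10 differed among the 4 groups, where 55.2% of 11996 genes tested did. Without control 1, 9 of the 10 did, where 75.6% of 11941 did, so these counts stand beside a high background. Bst2 was called in neither fit (adjusted p = 0.0830 and 0.148), and Cmpk2 only without control 1 (adjusted p = 0.0573 with it and 1.88e-05 without). All 10 genes passed the filter of at least 1 TPM in 3 libraries of a group, Ifi44 and Mx2 through treated groups alone. Without control 1, genes could pass the filter only through treated groups.

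**Figure D1:**
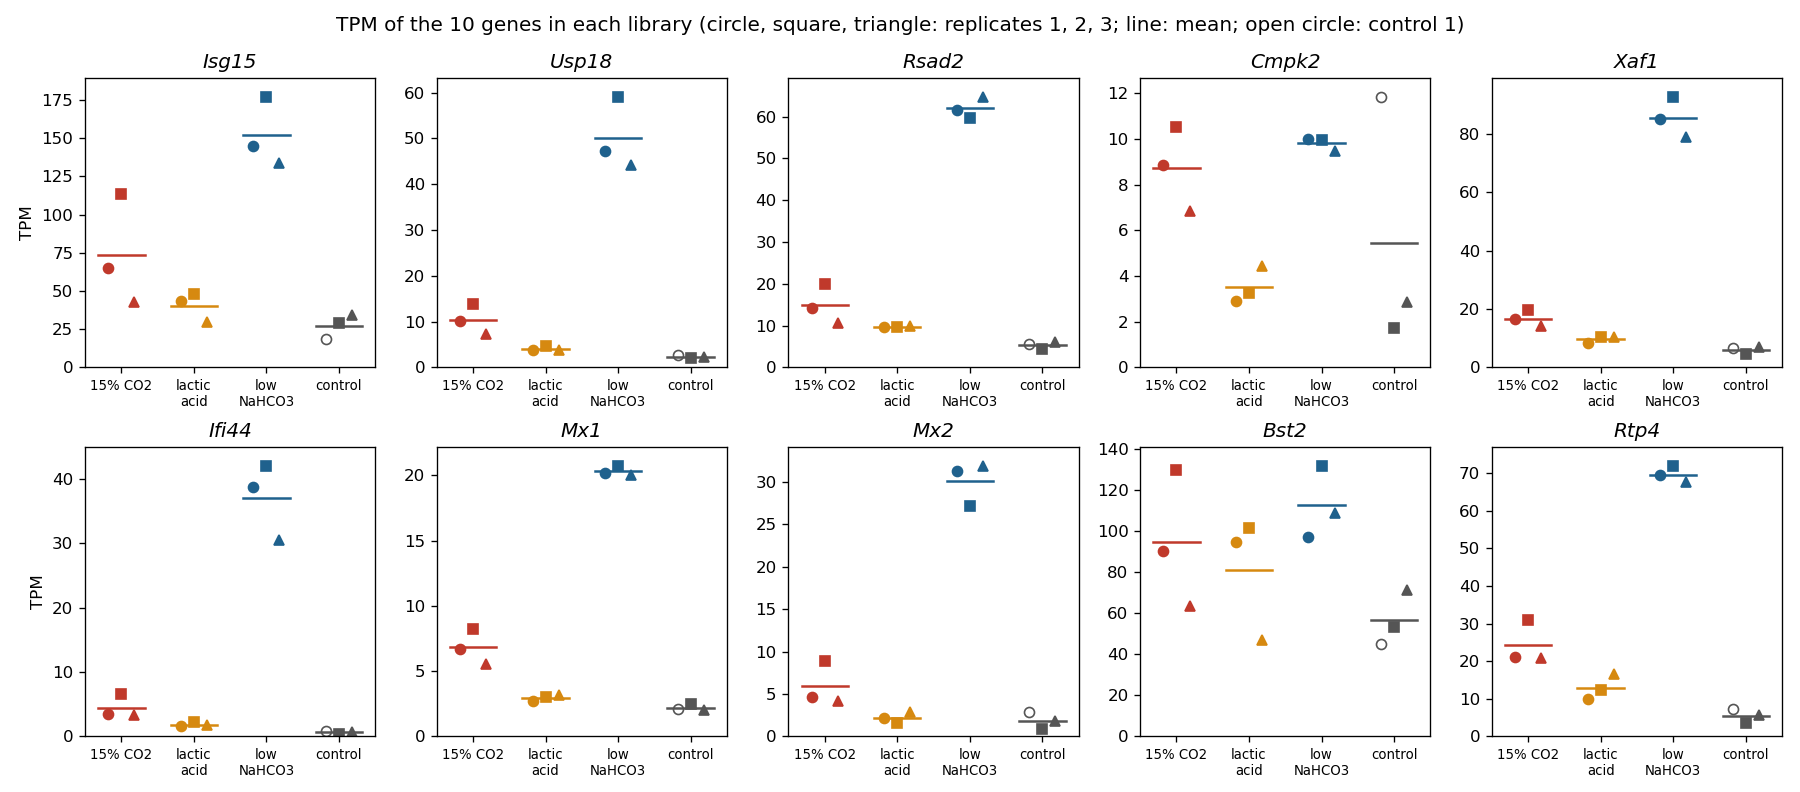
TPM (linear axes from 0, scaled for each gene) of the 10 genes in each library, by group, with replicates 1, 2 and 3 as circle, square and triangle, the group mean as a line and control 1 as an open circle. Low-NaHCO3 libraries lie above all others for 8 genes, with Bst2 and Cmpk2 as the exceptions (18.7% of all genes tested do), and control 1 is the highest Cmpk2 value at 11.8 TPM.

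Isg15, the ubiquitin-like modifier itself, stood at 65.0, 113 and 42.7 TPM in replicates 1 to 3 under 15% CO2, at 43.8, 47.8 and 29.8 TPM with lactic acid and at 145, 177 and 134 TPM in low-NaHCO3 medium, against 18.4, 28.9 and 34.4 TPM in control cells. The low-NaHCO3 libraries lay above every other library, the 15% CO2 libraries above every control, and the lactic acid libraries overlapped the controls. Only low-NaHCO3 medium raised it past the threshold of adjusted p under 0.05 (log2 change 2.47 ± 0.33, SE, limma adjusted p = 0.000105). Under 15% CO2 the log2 change was 1.34 ± 0.33 (limma adjusted p = 0.0782), and 1.09 ± 0.32 without control 1 (0.0634).

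Usp18, the protease that removes ISG15, stood at 10.2, 13.7 and 7.36 TPM under 15% CO2, at 3.75, 4.68 and 3.79 TPM with lactic acid and at 47.2, 59.0 and 44.2 TPM in low-NaHCO3 medium, against 2.68, 2.11 and 2.21 TPM in control cells. The groups formed 4 levels with no overlap. Usp18 overlaps Gm44148, a noncoding gene on the opposite strand, and reads of the 2 cannot be told apart if strand was not used in counting. Usp18 rose under 15% CO2 (log2 change 1.74 ± 0.19, limma adjusted p = 0.00367) and in low-NaHCO3 medium (3.93 ± 0.19, limma adjusted p = 2.67e-07). With lactic acid the log2 change was 0.60 ± 0.19 (limma adjusted p = 0.0982), and it passed without control 1 (0.68 ± 0.20, 0.0439).

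The distance between these 2 transcripts was smallest in low-NaHCO3 medium. Usp18 minus Isg15, as a difference of log2(TPM + 1), was -1.58 ± 0.016 (SD, n = 3) in low-NaHCO3 medium, -2.63 ± 0.29 under 15% CO2, -3.01 ± 0.29 with lactic acid and -3.04 ± 0.57 in control cells (-3.36 ± 0.14 for controls 2 and 3). Low-NaHCO3 libraries were above all others in this difference, with an exact permutation p of 0.1 against each group, the smallest that 3 against 3 allows. Benjamini-Hochberg adjustment over the 18 tests of such differences gave an exact permutation p of 0.164.

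Rsad2, which encodes viperin, stood at 14.1, 20.0 and 10.7 TPM under 15% CO2, at 9.60, 9.73 and 9.92 TPM with lactic acid and at 61.6, 59.7 and 64.6 TPM in low-NaHCO3 medium, against 5.49, 4.49 and 6.20 TPM in control cells. No group overlapped another, and the spread was widest under 15% CO2. Rsad2 rose in all 3 treatments: by 1.28 ± 0.18 on the log2 scale under 15% CO2 (limma adjusted p = 0.00806), by 0.76 ± 0.18 with lactic acid (0.0421) and by 3.31 ± 0.18 in low-NaHCO3 medium (3.87e-07).

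Cmpk2, a mitochondrial kinase of nucleoside monophosphates and the divergently transcribed neighbour of Rsad2 on chromosome 12, stood at 8.85, 10.5 and 6.83 TPM under 15% CO2, at 2.89, 3.24 and 4.44 TPM with lactic acid and at 10.02, 9.97 and 9.49 TPM in low-NaHCO3 medium, against 11.8, 1.73 and 2.84 TPM in control cells. Control 1 held the highest value of all 12 libraries and the other controls the lowest. With 12 libraries Cmpk2 passed against control in no treatment (limma adjusted p = 0.344, 0.807 and 0.0560 for 15% CO2, lactic acid and low-NaHCO3 medium). Without control 1 it rose under 15% CO2 (log2 change 1.57 ± 0.20, limma adjusted p = 0.00207) and in low-NaHCO3 medium (1.74 ± 0.20, 1.67e-05), while with lactic acid the value was 0.47 ± 0.20 (0.120), against -0.20 ± 0.44 with all controls. Low-NaHCO3 medium and 15% CO2 did not differ in Cmpk2 beyond error (log2 difference 0.17, 95% interval -0.80 to 1.14, limma adjusted p = 0.767), while Rsad2 had 2.02 ± 0.18 (7.53e-06). Rsad2 minus Cmpk2 in log2(TPM + 1) was 2.54 ± 0.094 (SD, n = 3) in low-NaHCO3 medium, 0.69 ± 0.15 under 15% CO2, 1.26 ± 0.23 with lactic acid and 0.96 ± 0.071 in controls 2 and 3 (0.31 ± 1.12 with control 1). Low-NaHCO3 medium exceeded each other group in it, at the same exact permutation p of 0.1 and 0.164.

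Mx1, which in mice acts in the nucleus against influenza-type viruses, stood at 6.70, 8.24 and 5.55 TPM under 15% CO2, at 2.69, 3.05 and 3.19 TPM with lactic acid and at 20.2, 20.7 and 20.0 TPM in low-NaHCO3 medium, against 2.09, 2.46 and 2.05 TPM in control cells. Mx2, its cytoplasmic relative, stood at 4.69, 8.85 and 4.16 TPM under 15% CO2, at 2.18, 1.60 and 2.88 TPM with lactic acid and at 31.3, 27.2 and 31.8 TPM in low-NaHCO3 medium, against 2.85, 0.847 and 1.84 TPM in control cells. Mx1 separated all 4 groups, whereas the lactic acid and control libraries of Mx2 overlapped. Under 15% CO2 Mx1 rose (log2 change 1.28 ± 0.14, limma adjusted p = 0.00367), and Mx2 had 1.28 ± 0.29 (0.0612), which passed without control 1 (1.53 ± 0.27, 0.00915). Both rose in low-NaHCO3 medium, Mx1 by 2.74 ± 0.14 (limma adjusted p = 2.76e-07) and Mx2 by 3.51 ± 0.29 (4.96e-06). Mx1 minus Mx2 in log2(TPM + 1) was -0.54 ± 0.14 (SD, n = 3) there and 0.23 ± 0.28 under 15% CO2, with an exact permutation p of 0.1 (0.164 adjusted). RefSeq lists both as transcribed pseudogenes in GRCm38.p6, and GENCODE M21 lists only Mx2 as one, a polymorphic pseudogene. Protein was not measured. Mx1 shares 4.77% of the 50-base stretches of its transcript with Mx2, and Mx2 shares 6.55% of its own with Mx1. Reads there could have been assigned to either gene.

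Xaf1, which encodes a binding partner of the caspase inhibitor XIAP, stood at 16.4, 19.6 and 14.1 TPM under 15% CO2, at 8.29, 10.5 and 10.6 TPM with lactic acid and at 85.1, 92.6 and 79.0 TPM in low-NaHCO3 medium, against 6.58, 4.47 and 6.83 TPM in control cells. Its 4 groups did not overlap. Xaf1 rose under 15% CO2 (log2 change 1.35 ± 0.16, limma adjusted p = 0.00448) and in low-NaHCO3 medium (3.65 ± 0.16, 1.81e-07). With lactic acid it had 0.64 ± 0.16 (limma adjusted p = 0.0516), which passed without control 1 (0.72 ± 0.17, 0.0179). Xiap itself, named after its value was seen, was lower in low-NaHCO3 medium, at 50.7 ± 4.55 TPM against 64.7 ± 6.88 TPM in control cells (log2 change -0.34 ± 0.11, limma adjusted p = 0.0177), where the median of all genes was -0.19. After median-of-ratios scaling, which takes out that shift, Xiap had -0.15 and did not pass (limma adjusted p = 0.149), while after quantile normalization it had -0.29 and passed (0.0202).

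Ifi44, an interferon-induced cytoplasmic protein, stood at 3.49, 6.53 and 3.27 TPM under 15% CO2, at 1.54, 2.17 and 1.84 TPM with lactic acid and at 38.7, 42.0 and 30.5 TPM in low-NaHCO3 medium, against 0.790, 0.392 and 0.644 TPM in control cells. Every control lay below 1 TPM, so adding 1 before the logarithm shrinks its changes more than those of the other 9 genes. Even so it had the largest log2 change of the 10 in low-NaHCO3 medium (4.56 ± 0.22, limma adjusted p = 2.67e-07), and it rose under 15% CO2 (1.71 ± 0.22, 0.00613). With lactic acid it had 0.83 ± 0.22 (limma adjusted p = 0.0607), and 0.91 ± 0.23 without control 1 (0.0228).

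Rtp4, a chaperone of G protein-coupled receptors that also has antiviral activity, stood at 21.1, 31.0 and 20.9 TPM under 15% CO2, at 9.996, 12.3 and 16.6 TPM with lactic acid and at 69.4, 71.8 and 67.6 TPM in low-NaHCO3 medium, against 7.29, 3.69 and 5.67 TPM in control cells. Its groups did not overlap. It was the other gene of the 10 that rose in all 3 treatments, by 1.97 ± 0.23 on the log2 scale under 15% CO2 (limma adjusted p = 0.00367), by 1.10 ± 0.23 with lactic acid (0.0275) and by 3.47 ± 0.23 in low-NaHCO3 medium (1.28e-06). Its transcript shares 13.6% of its 50-base stretches with the overlapping gene Gm45338, the largest share among the 10, while Isg15 shares 3.96% and Xaf1 2.94% with other genes.

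Bst2, which encodes tetherin, was the most abundant of the 10 in control cells. It stood at 90.3, 129.5 and 63.6 TPM under 15% CO2, at 94.6, 101 and 46.8 TPM with lactic acid and at 97.1, 132 and 109 TPM in low-NaHCO3 medium, against 44.9, 53.5 and 71.5 TPM in control cells. The 3 treatments overlapped one another, and the controls overlapped all but low-NaHCO3 medium. Bst2 rose in low-NaHCO3 medium only (log2 change 0.99 ± 0.31, limma adjusted p = 0.0199, and 0.84 ± 0.33 without control 1, 0.0452). That call was lost when low-NaHCO3 2 was left out (0.87, limma adjusted p = 0.0696). With control 1 out, it was also lost without 15% CO2 1 (limma adjusted p = 0.0603). The same held there without low-NaHCO3 1, 2 or 3 (limma adjusted p = 0.0544, 0.125 and 0.0858). Under 15% CO2 the value was 0.69 ± 0.31 (0.314) and with lactic acid 0.46 ± 0.31 (0.388). Bst2 and Isg15, with 2 and 3 matches to the longer form in the windows printed above, had log2 changes of 0.99 and 2.47 in low-NaHCO3 medium with 12 libraries, and Rsad2, with 1 match, had 3.31. Ifi44, Xaf1 and Cmpk2, with no such match, had 4.56, 3.65 and 1.08. Of the shorter form Bst2 held 3, Isg15 4 and Rsad2 2, while Ifi44, Xaf1 and Cmpk2 held 3, 2 and 0. A relation between matches and changes was not tested.

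Bst2 and Isg15 have the shortest transcripts of the 10, at 792 nt for Bst2 and 756 nt for Isg15, and both were lowest of their group in lactic acid 3 and in control 1. In lactic acid 3, genes under 1000 nt lay at a median of -0.48 on the log2 scale against the other 2 libraries of its group, and those over 4000 nt at -0.032. In control 1 the medians were -0.21 and 0.062, and in 15% CO2 3 they were -0.28 and -0.052. With each library's trend along transcript length removed, a setting added after seeing the data, Isg15 under 15% CO2 had a log2 change of 1.47 (limma adjusted p = 0.0145), past the threshold. That setting called 7 of the 10 genes under 15% CO2, against 6, and 217 of all genes, against 169. The part of transcript length in the values of Isg15 and Bst2 was not tested.

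Within the 15% CO2 group all 10 genes were highest in replicate 2 and lowest in replicate 3. All genes tested shifted the same way in median, each library set against the other 2 of its group on the log2 scale. In replicate 2 the medians were 0.21 under 1000 nt, 0.11 from 1000 to 4000 nt and 0.074 over 4000 nt. Replicate 3 had -0.28, -0.12 and -0.052. Mitochondrially encoded genes ran the other way, with 203698, 156010 and 248003 summed TPM in replicates 1 to 3. With lactic acid, replicate 1 was lowest for 7 genes, in low-NaHCO3 medium replicate 2 was highest for 7, and among the controls replicate 2 was lowest for 7. The share of all genes in any of these orders was not counted. Low-NaHCO3 libraries varied least for Mx1 (20.3 ± 0.352 TPM, SD, n = 3), Cmpk2 (9.83 ± 0.294 TPM) and Rtp4 (69.6 ± 2.104 TPM).

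Under 15% CO2, set against control, 6 of the 10 genes rose and none fell, where 1.34% of all genes tested were called higher. These were Usp18, Rsad2, Xaf1, Ifi44, Mx1 and Rtp4, and all 3 treated libraries lay above all 3 controls for them and for Isg15 and Mx2, 8 genes, as they did for 15.6% of all genes tested. Without control 1, Cmpk2 and Mx2 joined them, making 8, against a background of 6.05%. The median log2 change of the 10 was 1.31, beside 0.012 for all genes tested (0.12 after quantile normalization). Fitted alone in limma, these 6 libraries gave calls for 0 of the 10 and 0 of all genes, with 8 of the 10 and 1184 of all at an unadjusted p under 0.05. The same fit without control 1 called 8 of the 10, and 953 of all genes.

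Lactic acid gave the fewest calls against control. It raised 2 of the 10, Rsad2 and Rtp4, where 2.73% of all genes were called higher, and 5 without control 1 (Usp18, Rsad2, Xaf1, Ifi44 and Rtp4), where 9.38% were. The median log2 change was 0.59, beside -0.033 for all genes (0.12 after quantile normalization). Of all genes called, 61.9% were higher, and 72.2% after quantile normalization. The 2 calls became 0 without control 2, control 3, lactic acid 2, lactic acid 3 or low-NaHCO3 1, and 1 without 15% CO2 1, lactic acid 1, low-NaHCO3 2 or low-NaHCO3 3. In limma, a fit of only the 6 libraries gave 0 of the 10 and 0 of all genes, with 5 and 1670 at an unadjusted p under 0.05.

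In low-NaHCO3 medium, set against control, 9 of the 10 rose, where 20.5% of all genes were called higher, and 10 did without control 1, where 23.3% were. The median log2 change of the 10 was 3.39, while all genes tested had -0.19 with the TPM as deposited, -0.0085 after median-of-ratios scaling and 0.089 after quantile normalization. All 10 genes were called after either scaling. Of all genes called, 2454 of 6743 were higher with the TPM as deposited, 3562 of 6807 after median-of-ratios scaling and 2936 of 5051 after quantile normalization. The smallest change among the 9 was that of Bst2 and the largest that of Ifi44.

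**Figure D2:**
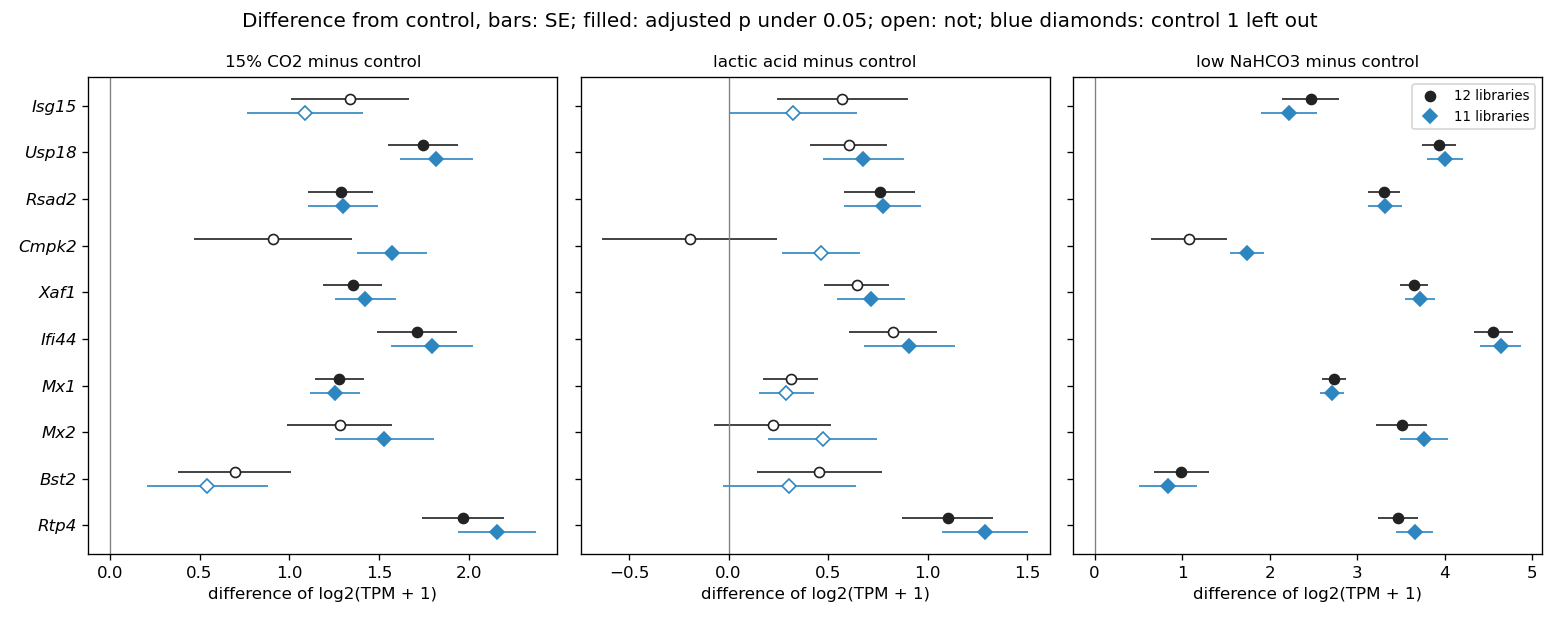
Difference of mean log2(TPM + 1) between each treatment and control for the 10 genes, with bars for the standard error of the fit. Circles are the fit of 12 libraries, diamonds that of 11 without control 1, filled where the limma adjusted p is under 0.05. Panels have their own scales, and control 1 shifts Cmpk2 most.

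Between treatments, 15% CO2 gave higher levels than lactic acid for 2 of the 10 genes, Usp18 (log2 difference 1.14 ± 0.19, limma adjusted p = 0.0487) and Mx1 (0.97 ± 0.14, 0.0202), where 0.275% of all genes were called higher. All 3 libraries under 15% CO2 lay above all 3 with lactic acid for 8 of the 10 genes, all but Isg15 and Bst2, as they did for 15.6% of all genes tested. Without control 1, which enters through the shared estimate of spread, 7 were called, where 3.12% of all genes were, and the differences themselves did not move. Of all genes called with 12 libraries, 33 of 40 were higher, and 31 of 45 after median-of-ratios scaling. The calls became 0 without 15% CO2 1, 15% CO2 2, lactic acid 1, lactic acid 2 or low-NaHCO3 2. They became 1 without control 2, control 3, lactic acid 3, low-NaHCO3 1 or low-NaHCO3 3. For Bst2 the difference was 0.24, with a 95% interval of -0.45 to 0.93.

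Set against 15% CO2, low-NaHCO3 medium was higher in 8 of the 10 genes, where 18.1% of all genes were called higher (8 and 24.3% without control 1). The differences ran from 1.14 ± 0.33 for Isg15 (limma adjusted p = 0.0132) to 2.85 ± 0.22 for Ifi44 (3.69e-06). The Isg15 call was lost without 15% CO2 3 (0.80, limma adjusted p = 0.0545). Cmpk2, given above, and Bst2 (0.30, 95% interval -0.40 to 0.99) did not pass. Of all genes called, 2175 of 6323 were higher, and 3544 of 6478 after median-of-ratios scaling. Set against lactic acid, low-NaHCO3 medium was higher in 9 genes, where 18.3% of all genes were (9 and 25% without control 1), from 1.27 ± 0.44 for Cmpk2 (limma adjusted p = 0.0324) to 3.73 ± 0.22 for Ifi44 (1.14e-06). Of all genes called, 2201 of 5998 were higher, and 3424 of 6217 after median-of-ratios scaling. Bst2 had 0.54, with a 95% interval of -0.16 to 1.23. The Cmpk2 call against lactic acid was lost when lactic acid 1 or 2 or any 1 low-NaHCO3 library was left out, at limma adjusted p from 0.0736 to 0.0889, while without control 1 it had 6.53e-05.

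**Figure D3:**
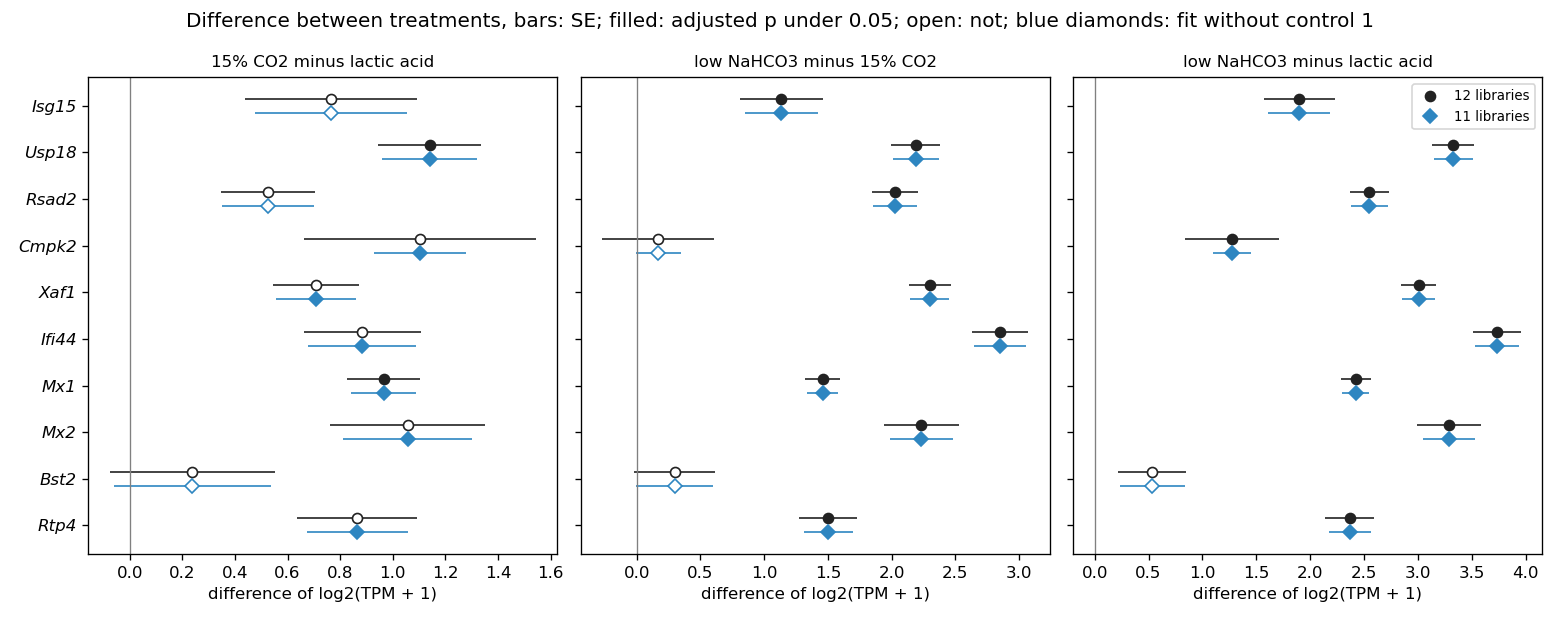
Difference of mean log2(TPM + 1) between pairs of treatments for the 10 genes, with bars for the standard error. Circles are the fit of 12 libraries, diamonds that of 11 without control 1, filled where the limma adjusted p is under 0.05. Every difference lies above 0. In the panel of 15% CO2 against lactic acid only Usp18 and Mx1 have filled circles, and Isg15, Rsad2 and Bst2 are open in both fits.

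Most of the enzymes that attach ISG15 rose too. In low-NaHCO3 medium the ligase Trim25 changed most, and under 15% CO2 the activating enzyme Uba7 did. Of 7 conjugation genes listed, 6 were in the table by symbol (all but Usp41) and tested. Under 15% CO2 the E1 enzyme Uba7, the E2 enzyme Ube2l6, the ligase Herc6 and the ligase Trim25 rose, 4 of 6, with log2 changes of 1.08 ± 0.17 (limma adjusted p = 0.0142), 0.72 ± 0.14 (0.0278), 0.68 ± 0.10 (0.00984) and 0.73 ± 0.14 (0.0329). In low-NaHCO3 medium the same 4 and Arih1 rose, by 1.89 ± 0.17, 1.38 ± 0.14, 1.52 ± 0.10, 2.43 ± 0.14 and 0.34 ± 0.072. The shares of all genes tested that were called higher were 1.34% under 15% CO2 and 20.5% in low-NaHCO3 medium. None passed with lactic acid, and without control 1 only Uba7 did (0.54 ± 0.16, limma adjusted p = 0.0436), where 9.38% of all genes were called higher. Uba7 stood at 7.01, 8.22 and 5.94 TPM under 15% CO2, at 3.89, 4.06 and 4.29 TPM with lactic acid and at 12.7, 15.1 and 11.4 TPM in low-NaHCO3 medium, against 3.44, 1.99 and 3.06 TPM in control cells, with no overlap between groups. Otub1, a deubiquitinase that binds ubiquitin-charged E2 enzymes, passed in no treatment (183 ± 10.7 TPM in low-NaHCO3 medium against 182 ± 4.20 TPM in control cells, SD, n = 3).

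**Figure D4:**
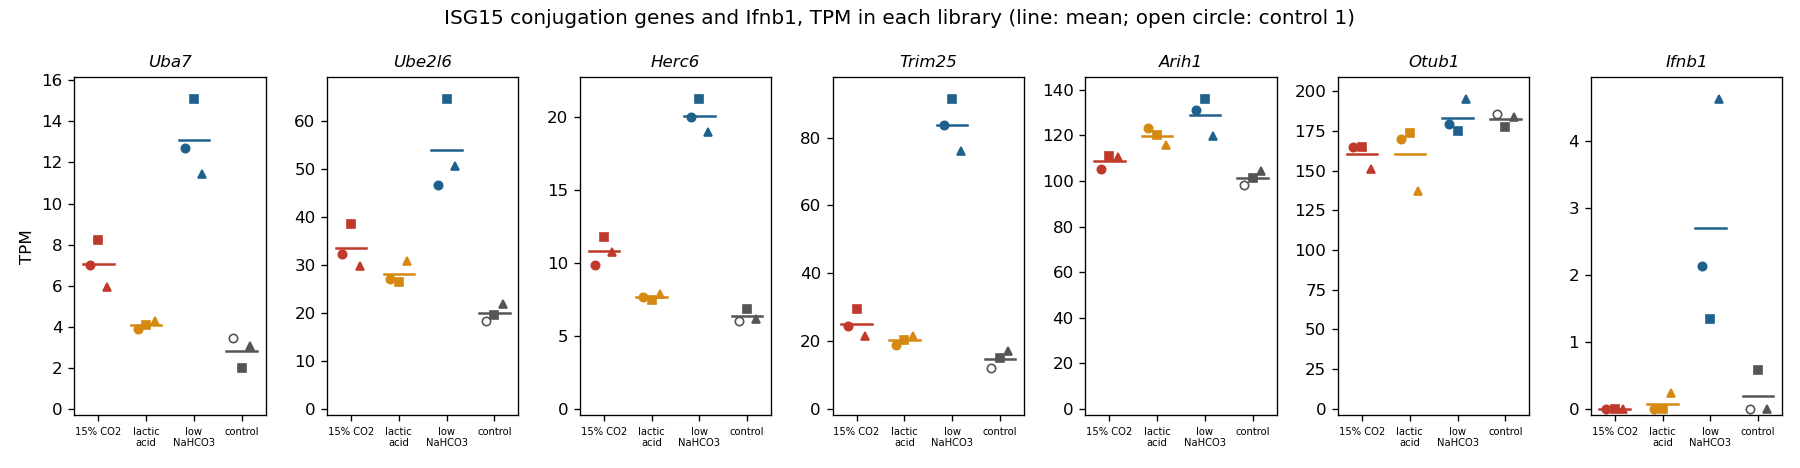
TPM (linear axes, scaled for each gene) of 6 ISG15 conjugation genes and of Ifnb1 in each library, by group, with the group mean as a line and control 1 as an open circle. Trim25 lies between 76.0 and 91.4 TPM in low-NaHCO3 medium and Ifnb1 is listed at 0 in all libraries under 15% CO2.

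Of 11 interferon genes listed, only Ifnb1, which encodes interferon beta, passed the filter on low values. It stood at 2.13, 1.33 and 4.63 TPM in low-NaHCO3 medium, against 0, 0.583 and 0 TPM in control cells. Under 15% CO2 it was listed at 0 in every library, and with lactic acid at 0, 0 and 0.239 TPM. It passed the filter through low-NaHCO3 medium alone, where it is high, so its difference from control is given as a description with no test. The other interferon gene of highest mean, Ifne, averaged 0.911 TPM under 15% CO2, 0.601 TPM with lactic acid and 0.126 TPM in low-NaHCO3 medium, against 0.329 TPM in control cells, and was not tested. TPM keep no depth, so a value of 0 says only that the gene is listed at 0.

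Among 12 genes of the receptor and its signalling, 7 rose in low-NaHCO3 medium, 3 under 15% CO2 and none with lactic acid. Under 15% CO2 these were Irf7, which drives interferon genes (log2 change 1.64 ± 0.22, limma adjusted p = 0.00748), Irf9 (0.95 ± 0.15, 0.0116) and Stat2 (0.95 ± 0.13, 0.00806). In low-NaHCO3 medium they had 3.72 ± 0.22, 1.91 ± 0.15 and 2.12 ± 0.13 (limma adjusted p = 6.23e-07, 2.77e-06 and 8.48e-07). Of all genes tested, 20.5% were called higher in low-NaHCO3 medium, 1.34% under 15% CO2 and 2.73% with lactic acid. Without control 1 the counts were 7, 3 and 1, where 23.3%, 6.05% and 9.38% of all genes were called higher. In that fit 2 of the 12 were lower in low-NaHCO3 medium, where 41.4% of all genes were.

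Of 38 further interferon-stimulated antiviral genes, 35 were tested. 15% CO2 raised 19 of them, lactic acid 5 and low-NaHCO3 medium 31, with 1 lower there, and without control 1 the higher counts were 21, 9 and 33. Shares of all genes tested called higher were 1.34%, 2.73% and 20.5%, and without control 1 6.05%, 9.38% and 23.3%. The median log2 changes of the 35 were 0.85, 0.37 and 1.75. The 4 largest called changes under 15% CO2 were those of Oas2 (2.03 ± 0.28), Ifit1 (1.999 ± 0.23), Oasl2 (1.91 ± 0.31) and Ifit3 (1.89 ± 0.34), beside 1.97 ± 0.23 for Rtp4, the largest of the 10. In low-NaHCO3 medium these 4 had 3.18, 3.44, 3.64 and 4.75. The gene that fell there was Ifitm2, named after its value was seen (40.8 against 82.2 TPM in control cells, log2 change -0.99 ± 0.20, limma adjusted p = 0.00146), where 35.8% of all genes were called lower. After median-of-ratios scaling it had -0.80 (limma adjusted p = 0.00912).

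The last list held relatives and partners of the 10, such as other dynamins, kinases and inhibitors of apoptosis. Of 13 listed, 7 were tested: none passed under 15% CO2, lactic acid raised 1, and low-NaHCO3 medium raised 1 and lowered 2. In low-NaHCO3 medium 20.5% of all genes tested were called higher and 35.8% lower, so its counts here stand near the background. With lactic acid 2.73% of all genes were called higher, and under 15% CO2 1.34%. Without control 1 the higher counts were 1, 2 and 2, where 6.05%, 9.38% and 23.3% of all genes were called higher. In that fit 2 were lower in low-NaHCO3 medium, where 41.4% of all genes were. Cmpk1, the cytosolic counterpart of Cmpk2, fell in low-NaHCO3 medium (80.2 ± 3.84 against 108 ± 5.84 TPM, log2 change -0.43 ± 0.0999, limma adjusted p = 0.00386, and -0.23 with 0.0303 after median-of-ratios scaling). Dnm2, a dynamin related to the Mx proteins, had 74.8 ± 4.43 TPM there against 78.3 ± 5.96 TPM in control cells (log2 change -0.065 ± 0.080, limma adjusted p = 0.504), and 0.13 after median-of-ratios scaling (0.221).

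Across the 11 libraries without control 1, the genes outside the 10 whose log2 levels ran closest to the mean profile of the 10 were Irf9 (Pearson r = 0.998), Apol9a (0.997), Zbp1 (0.996), Ifit3 (0.994), Gbp3 (0.993) and Ddx60 (0.993). With 12 libraries r was 0.964 for Apol9a and 0.988 to 0.997 for the other 5. The libraries fall into 4 groups at separate levels, so r describes mainly the order of the groups. Each of the 10 was also set against the mean of the other 9: 8 had r from 0.966 to 0.991, Cmpk2 had 0.868 (0.646 with control 1) and Bst2 0.678. Apol9a averaged 21.8 ± 5.40 TPM under 15% CO2, 13.4 ± 1.45 TPM with lactic acid and 44.4 ± 4.11 TPM in low-NaHCO3 medium, against 7.46 ± 1.95 TPM in control cells (SD, n = 3 each).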

How the data were processed

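Bulk RNA sequencing values of 12 libraries, 3 in each of 4 groups named by the labels, were deposited by the authors as TPM per gene, 21959 genes in all, 21851 of them with a symbol. Per the labels' protocols, Trizol was used for RNA and NEBNext Ultra II for libraries. The submitters' processing notes name fastp 0.22.0, HISAT2 2.1.0 and the build GRCm39, with no order of steps. The sources used here do not give the counter, the annotation or the strand setting. Depth is unknown, since TPM keep none, so no counting interval is given; 14531 to 17319 genes were above 0 in a library.

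From these values log2(TPM + 1) was fitted with limma 3.58.1 in R 4.3.3 (group means, empirical Bayes with a trend, two-sided, Benjamini-Hochberg over all genes tested, threshold 0.05). All 12 libraries entered 1 fit, and genes needed at least 1 TPM in 3 libraries of a group, which left 11996 genes, and 11941 without control 1. The fit was tested on simulated data. SE is that of the fit. Fold changes on this scale understate those of low genes. Ratios between genes were compared by two-sided exact permutation of libraries. Same-numbered libraries did not deviate together in every pair (correlations -0.149 to 0.490), so no block was used.

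The 10 genes and the lists were chosen with earlier results of these data known. All 10 genes and the ISG15 conjugation list were named. Of other lists the named genes were up to 4 with the largest called change under 15% CO2, or the 2 of highest mean TPM where none was called. The 6 genes most like the 10 by Pearson r were named too, leaving out predicted names. Alternatives were another pseudocount (0.1), other filters, median-of-ratios and quantile scaling, fits of only the groups compared, no trend, a replicate block and leaving out libraries. Removal of a length trend and the joint omissions were chosen after seeing the data. Promoters and their strands came from RefSeq (GRCm38.p6), transcript lengths and shared stretches from GENCODE M21 transcripts. These builds differ from that of the alignment, so they were used only for names and sequences.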

Additional observations from a re-analysis of the deposited data

How the results depend on the processing

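In low-NaHCO3 medium every alternative called 8 to 10 of the 10 genes against control, 7 to 8 against 15% CO2 and 8 to 10 against lactic acid. Calls over all genes were many in these comparisons, at 5051 to 8558, 4251 to 8880 and 4018 to 8469. Counts of the 10 genes in the other comparisons depended on the setting, and the cause was not tested. For lactic acid against control (2 called) the count was 4 with log2(TPM + 0.1), 0 without a filter, 4 after median-of-ratios scaling, 1 after quantile normalization, 0 in a fit of only the groups compared, 0 with a replicate block and 5 with the length trend removed. Calls over all genes in these settings came to 496, 337, 813, 345, 0, 373 and 914, against 528. For 15% CO2 against lactic acid (2 called) the count of the 10 was 0 without a filter, 0 after quantile normalization, 1 in a fit of only these groups and 1 with the replicate block. All genes gave 12, 5, 120 and 13 calls there, against 40. For 15% CO2 against control (6 called) the count of the 10 was 0 in a fit of only these groups. The sources used here do not say whether replicate numbers pair the libraries. For 15% CO2 against lactic acid, deviations of same-numbered libraries correlated at -0.030, 0.35 and 0.49 in replicates 1, 2 and 3. The block left the other counts of the 10 genes within 1.5 times.

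With control 1 out and median-of-ratios scaling, lactic acid against control gave 5 and 15% CO2 against lactic acid 7. Calls over all genes came to 2724 and 847. With control 1 out and only the groups compared, these comparisons gave 4 and 1, with 999 and 120 over all genes. With control 1, 15% CO2 3 and lactic acid 3 out they gave 6 and 9, and 15% CO2 against control gave 10, while calls over all genes came to 2330, 692 and 1607, against 528, 40 and 169 with 12 libraries. Genes of the other lists called under 15% CO2 (26) numbered 15 after quantile normalization and 0 with only the groups compared. With lactic acid (6) they numbered 10 after median-of-ratios scaling, 0 with only the groups compared, 19 with control 1 out and median-of-ratios scaling and 17 with the 3 libraries out.

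Leaving out 1 library gave 6 to 8 called genes under 15% CO2, 0 to 5 with lactic acid and 8 to 10 in low-NaHCO3 medium against control, 0 to 7 for 15% CO2 against lactic acid, and 8 to 9 in the F test. Calls over all genes came to 30 to 917, 107 to 1996 and 5494 to 7731 against control. For 15% CO2 against lactic acid they came to 8 to 578. The upper end was each time the fit without control 1. The other lists gave 8 to 29, 1 to 13 and 44 to 53 against control. Here and below, list counts in low-NaHCO3 medium include any call of Ifnb1, which passed the filter through that group alone. With control 1 out as well, the 10 genes gave 6 to 9, 0 to 5, 9 to 10, 3 to 9 and 9 to 10, and the lists 12 to 37, 1 to 17 and 43 to 53. Where 1 control was left, it was assumed to vary like the other groups.

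The log2 change of Cmpk2 with lactic acid against control (-0.20) turned to 0.056 after quantile normalization, 0.47 with control 1 out, also with median-of-ratios scaling or only the groups compared, and 0.33 with the 3 libraries out, and ran from 0.22 to 0.71 with control 1 and 1 other library out. Without control 2 it was -0.65. That of Mx2 (0.22) became -0.057 without control 2 and was at most 0.78, without controls 1 and 3. Bst2 for 15% CO2 against lactic acid (0.24) became -0.017 without 15% CO2 2 and -0.11 without lactic acid 3, and was at most 0.49, without 15% CO2 3. Under quantile normalization Rsad2 and Mx1 lost their calls under 15% CO2 (limma adjusted p = 0.0685 and 0.0686) with larger log2 changes (1.67 and 1.48, against 1.28 each) and Isg15 its call against 15% CO2 in low-NaHCO3 medium (0.0519). Precision is limited by 3 libraries a group and by a depth that is not known.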
